A study of Caenorhabditis elegans with 15 samples.

Results

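The ust221 allele of puf-8 was compared with the ok302 allele in young adult Caenorhabditis elegans by sequencing of polyadenylated RNA. One strain carried puf-8(ust221), for which the labels also give the code MUT-4A, and the strain it was set against carried puf-8(ok302), a deletion allele used in the field as a null. The comparison uses the 3 libraries of each allele, 6 of the 15 libraries of the series, and was described across 16214 of the 47111 genes in the deposited table, those with enough reads to test. The other 9 libraries came from wild type and from 2 further puf-8 alleles, and they enter here only in 1 alternative fit. Per the labels' protocols, animals of both strains were synchronised as first-stage larvae, grown at 20 °C on Escherichia coli OP50 and collected whole as young adults. The labels name no other allele, transgene or treatment in either strain. They do not say which bases ust221 or ok302 changes, and they do not say whether the 3 libraries of a strain came from separate cultures, so p-values measure the spread between these libraries, which may be technical.

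PUF-8 belongs to the Pumilio/FBF family, cytoplasmic proteins whose repeats hold short sequences in the 3' untranslated regions of mRNAs and usually lower the translation or stability of those mRNAs. In the worm it is known for work in the germ line. There it helps germline stem cells to divide, keeps sperm precursors from returning to mitosis and promotes the switch from sperm to oocytes. It does so in part together with MEX-3 or with FBF-1, a member of the same family. Worms make sperm as larvae and oocytes as adults, and they shed and rebuild the cuticle at every larval molt, so many transcripts in a whole worm also depend on its age to within hours.

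The libraries held between 21328287 and 25957049 counts. Levels are given in CPM, counts divided by the library size and scaled to a common total, after TMM normalization of the library sizes. TMM, the trimmed mean of M values, sets the libraries so that most genes are level between them. Its factors were 0.727, 0.799 and 1.06 in ust221 replicates 1, 2 and 3, against 1.17, 1.23 and 1.13 in the ok302 libraries. Replicate 3 of ust221 therefore lay closer to ok302 in this factor than the other two ust221 libraries did. Cuticle collagens took 10.4, 9.29 and 7.03% of all counts in ust221, against 4.26, 4.31 and 3.34% in ok302. Log2 CPM of the libraries correlated at 0.963 to 0.978 within a genotype and at 0.881 to 0.924 between genotypes.

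The mutated gene separated the strains as labelled. Transcripts of puf-8, on chromosome II at 7296110 to 7298247 in the deposited table, which names no genome build, stood at 47.2, 52.3 and 64.9 CPM in ust221, against 0.281, 0.386 and 0.117 CPM in ok302. Those ok302 values rest on 7, 11 and 3 reads. The groups were far apart, at log2 7.67 ± 0.35 higher in ust221 (standard error; edgeR quasi-likelihood test with Benjamini-Hochberg adjustment, adjusted p = 2.8e-05, 3 libraries per genotype, as in every test below). The ust221 strain thus kept puf-8 mRNA and the ok302 strain held almost none of it.

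Across all genes, 6515 of 16214 (40.2%) passed the test. Of these, 2944 were higher in ust221 (18.2% of genes tested) and 3571 were lower (22.0%). The directions differed in size: the called genes that were lower had a median log2 fold change of -1.88, and those that were higher a median of 0.81, while the median of all genes tested was -0.07. At least an 8-fold difference was found for 869 lower and 21 higher genes, and at least a 16-fold difference for 392 lower and 3 higher genes. Genes that were lower had a median of 1.24 CPM in ust221 and 5.42 CPM in ok302. Genes that were higher had a median of 65.8 CPM in ust221 and 38.9 CPM in ok302. So the falls were mostly large falls of weakly expressed genes, and the rises mostly modest rises of genes at a medium or high level.

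**Figure D1:**
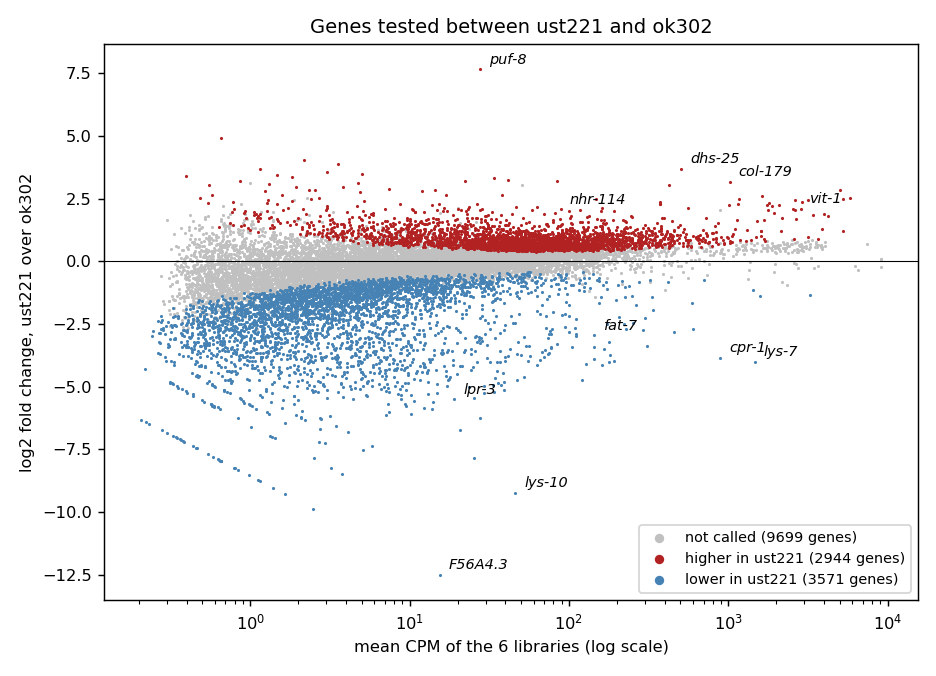
Log2 fold change of ust221 over ok302 (vertical axis) against the mean CPM of the 6 libraries (log scale) for the 16214 genes tested. Each point is a gene, red where called higher in ust221 (2944), blue where called lower (3571) and grey where not called (9699). The red points form a narrow band near the zero line with puf-8 alone at 7.67, and the blue points reach far below it.

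Most rises were lost with library totals or upper-quartile scaling, and nearly all falls were kept. Both scalings shifted the fold changes downward, which takes away rises rather than falls, so they could not test the falls. With library totals in place of TMM the median of all genes shifted by -0.44 on the log2 scale. Then 640 genes were called higher (3.95%) and 5303 lower (32.7%), and 640 of the 2944 rises and 3569 of the 3571 falls were kept. With upper-quartile scaling the median shifted by -0.22 and the counts were 1386 higher and 4336 lower. With the size factors of DESeq2 in place of TMM the median shifted by 0.05. Then 3248 genes were called higher and 3457 lower, and all 2944 rises and 3448 of the 3571 falls were kept. In 1 fit over all 15 libraries 1870 genes were higher (10.9%) and 1008 lower (5.85%). That fit kept 1858 of the 2944 rises and 985 of the 3571 falls. None of the 6515 genes was called in the other direction in any of the 15 alternatives run. The number of rises was 1836 without ust221 replicate 1, 1749 without ok302 replicate 1, 1874 without ok302 replicate 2 and 1513 without ok302 replicate 3. For gene groups that rose, the count under library totals is therefore given beside the main one.

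**Figure D2:**
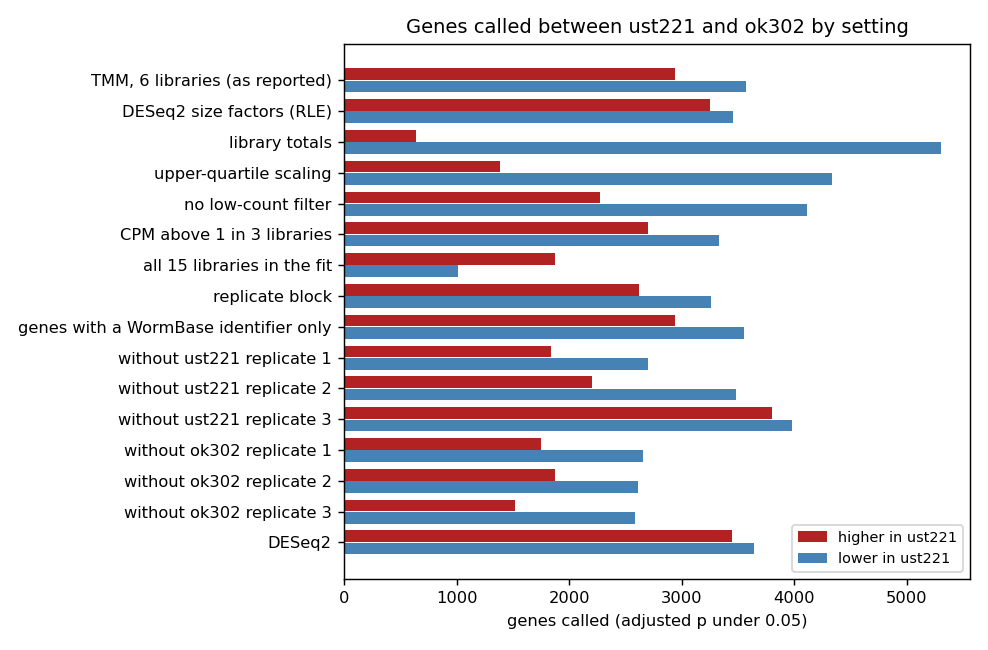
Number of genes called higher (red) and lower (blue) in ust221 than in ok302 at an adjusted p under 0.05, for the analysis as reported and 15 alternatives. Library totals give 640 rises and 5303 falls, and the fit over all 15 libraries gives 1870 rises and 1008 falls.

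Among the 12 genes with the largest rises were puf-8 and several enzymes and transporters of small-molecule metabolism. The short-chain dehydrogenase gene dhs-25 stood at 1066, 1145 and 605.6 CPM in ust221, against 53.0, 136.0 and 28.3 CPM in ok302 (log2 3.70 ± 0.55, edgeR, adjusted p = 0.00168). The folate transporter gene folt-2 stood at 860.6, 776.0 and 645 CPM in ust221, against 50.3, 196 and 30.5 CPM in ok302 (3.04 ± 0.60, adjusted p = 0.00505). In both genes every ust221 library was above every ok302 library, and ok302 replicate 2 was the highest of its group. The gene cth-1, which encodes a cystathionine gamma-lyase of sulfur amino acid metabolism, rose by log2 3.32 ± 0.37 (adjusted p = 6.1e-04), the copper transporter gene F58G6.3 by 3.21 ± 0.32 and the metalloprotease gene zmp-3 by 3.50 ± 0.47. The nuclear hormone receptor gene nhr-114, which is known to be needed for fertility on some bacterial diets, rose by 2.08 ± 0.39 (adjusted p = 0.00412). It stood at 163, 171 and 96.5 CPM in ust221, against 24.7, 57.2 and 20.1 CPM in ok302, so its groups did not overlap. These 6 genes kept their call in each of the 15 alternatives.

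The largest falls included 2 neighbouring genes that no ust221 library contained. F56A4.3 had 0 counts in the 3 ust221 libraries and 30.5, 38.9 and 23.4 CPM in ok302, at least 642-fold lower in ust221. The gene next to it, irld-35, had 0 counts in ust221 and 4.66, 6.69 and 3.42 CPM in ok302, at least 102.7-fold lower. These bounds take 3 counts over the ust221 group as the floor and cover counting error only. F56A4.3 lies on chromosome V at 2453414 to 2456147 and irld-35 at 2456176 to 2458286 on the other strand. Of the next gene along, clec-209, looked up after these values were seen, the copy at 2459637 had 173.5, 133.9 and 109 CPM in ust221, against 219.9, 77.35 and 208 CPM in ok302, and was not called (-0.28, adjusted p = 0.549). No test was run of whether the strains differ at this place in their DNA. In all, 33 genes called lower had 0 counts in every ust221 library, and no gene called higher had 0 counts in every ok302 library.

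Transcripts of the cuticle and of molting changed widely in both directions. Of 163 cuticle collagen genes tested, 28 rose and 89 fell (26 and 96 with library totals, 12 and 40 in the fit over 15 libraries), with a median log2 fold change of -1.88. The 28 that rose were abundant: together they stood at 140944, 111633.5 and 65237.5 CPM in ust221, against 26746.9, 24030.3 and 18536 CPM in ok302. The 89 that fell summed to 1032, 2399 and 602.9 CPM in ust221, against 8445, 9403 and 9622 CPM in ok302. Both sets were chosen by their calls in these libraries, which fixes the direction of their sums. In whole animals, fewer cells of a type and less RNA per cell cannot be told apart.

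Of 4 collagens listed for the adult cuticle, col-19 rose, col-63 fell, and col-7 and col-62 were not called. The gene col-19, the usual marker of the adult cuticle, stood at 6289, 5318 and 2994 CPM in ust221, against 1059, 964 and 801.6 CPM in ok302 (2.37 ± 0.35, edgeR, adjusted p = 0.00154). The largest rise of a collagen was that of col-179, with 2418, 1892 and 1202 CPM in ust221, against 218.5, 246 and 140.1 CPM in ok302 (3.19 ± 0.34, adjusted p = 5.1e-04). Levels of col-63 were 0.449, 14.2 and 6.55 CPM in ust221, against 83.3, 111.3 and 85.2 CPM in ok302 (-3.71 ± 0.74, adjusted p = 0.00523). In col-19 and col-179 ust221 replicate 3 was the lowest of its group and still well above ok302. Collagen genes col-122, col-20, col-140 and col-124 were, with vit-3, the 5 most abundant genes that rose, at log2 1.82 ± 0.36, 2.51 ± 0.39, 2.55 ± 0.43 and 2.86 ± 0.40. In the fit over 15 libraries col-140 and col-179 kept their call, and col-19, col-63, col-20, col-122 and col-124 did not.

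Molting genes fell, as did rol-6 and dpy-7, collagen genes among the hypodermis markers. Levels of rol-6, whose mutation makes worms roll, were 1.03, 8.07 and 1.202 CPM in ust221, against 92.3, 103.6 and 76.9 CPM in ok302 (-4.74 ± 0.68, edgeR, adjusted p = 0.00143). The short-worm collagen gene dpy-7 stood at 2.31, 4.01 and 0.655 CPM in ust221, against 38.0, 54.1 and 46.0 CPM in ok302 (-4.34 ± 0.51). Of 28 molting genes other than collagens, 18 fell and none rose (20 and 0 with library totals, 12 and 0 over 15 libraries), with a median of -1.61. Among them was mlt-11, which encodes a Kunitz-type protease inhibitor needed for molting, at 0.961, 5.29 and 0.947 CPM in ust221, against 45.2, 91.3 and 70.8 CPM in ok302 (-4.86 ± 0.63, adjusted p = 9.5e-04). The lipocalin gene lpr-3 of the precuticle matrix (-5.50 ± 0.42), the zona pellucida protein gene noah-1 (-4.01 ± 0.39) and the astacin protease gene nas-6 (-6.67 ± 0.64) fell too. In ust221 replicate 2 rol-6, dpy-7, mlt-11 and noah-1 were higher than in the other 2 ust221 libraries, yet below every ok302 library.

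Relatives of hedgehog signalling, which in nematodes include many secreted cuticle and precuticle proteins, fell in 26 of 45 cases and rose in 3 (27 and 2 with library totals, 14 and 1 of 51 over 15 libraries; median -1.43). The warthog genes wrt-2 (-6.27 ± 0.47) and wrt-10 (-4.74 ± 0.48) were among those that fell. Levels of wrt-2 were 0.0641, 0.107 and 0.0364 CPM in ust221, against 5.18, 5.96 and 5.25 CPM in ok302, so in ust221 it was close to the limit of detection. The 3 hedgehog-related genes that rose were grd-3 (1.54 ± 0.27), grd-5 (1.39 ± 0.28) and grd-10 (0.99 ± 0.29), and the last was not called with library totals. Of 26 patched-related genes, which encode membrane proteins with a sterol-sensing domain, 12 fell and 4 rose (15 and 1 with library totals, 5 and 3 of 27 over 15 libraries), with ptr-4 at -5.10 ± 0.36. Among 11 hypodermis markers, which overlap these lists, 6 fell and 1 rose (3 and 1 over 15 libraries). Their summed level ranged from 299.9 to 532 CPM in ust221, against 596 to 711 CPM in ok302, and its part in the cuticle results was not tested.

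**Figure D3:**
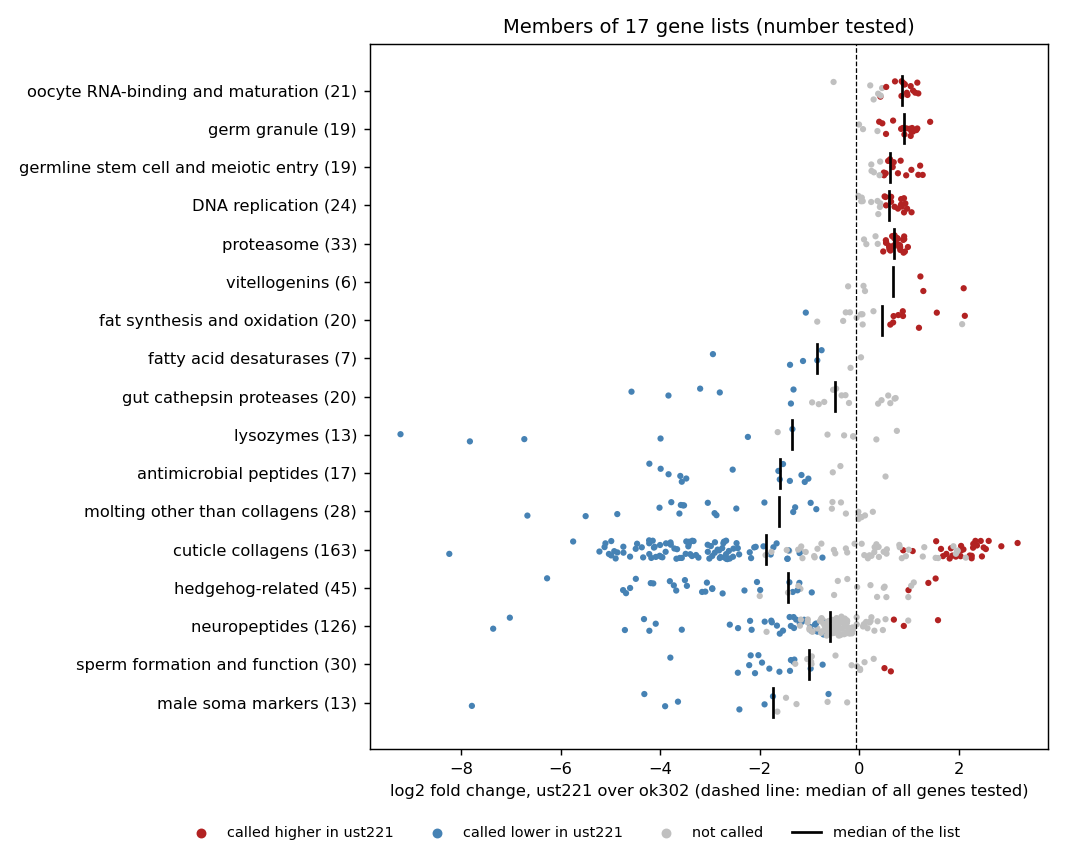
Log2 fold change of ust221 over ok302 for the tested members of 17 gene lists, 1 point per gene, red where called higher in ust221, blue where called lower and grey where not called. The black bar is the median of a list and the dashed line the median of all genes (-0.07). Germline lists lie just right of the line, cuticle collagens split into a right and a left group, and lysozymes, antimicrobial peptides and molting genes lie on the left.

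Listed genes of defence fell more often than they rose. Of 17 antimicrobial peptide genes 14 fell and none rose (16 and 0 with library totals, 7 and 0 of 18 over 15 libraries; median -1.59). The peptide genes nlp-34, nlp-30 and cnc-2, known from the response of the epidermis to fungal infection, fell, at log2 -4.22 ± 0.47, -3.56 ± 0.29 and -3.99 ± 0.49. The defensin-like gene abf-2 stood at 3.53, 2.94 and 1.53 CPM in ust221, against 36.3, 21.1 and 37.8 CPM in ok302 (-3.59 ± 0.36, edgeR, adjusted p = 3.9e-04). All 4 were lower in each ust221 library than in any ok302 library.

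Of 13 lysozyme genes 6 fell and none rose (8 and 0 with library totals, 5 and 0 over 15 libraries; median -1.34). The summed level of the list overlapped, at 5270, 4728 and 3152 CPM in ust221, against 7578, 4686 and 9352 CPM in ok302. The most abundant gene that fell within the lysozyme list was lys-7, with 218.3, 174 and 127.5 CPM in ust221, against 3025, 1841 and 3403 CPM in ok302 (-3.99 ± 0.35, edgeR, adjusted p = 2.3e-04). Its groups lay far apart, with no library between them. Other lysozymes were uneven within ok302: lys-10 stood at 1.13, 8.80 and 265.5 CPM there, ilys-2 at 3.17, 34.9 and 113.8 CPM and ilys-3 at 4.98, 33.1 and 86.0 CPM, with replicate 3 the highest each time. In ust221 these 3 genes were between 0 and 0.588 CPM. Their calls (-9.22 ± 2.12, -7.82 ± 1.39 and -6.73 ± 1.03) held without ok302 replicate 3. The call of lys-4 did not hold (-2.24 ± 0.70, adjusted p = 0.0306; without that library -0.62, adjusted p = 0.104).

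Other secreted proteins of the gut showed mixed directions. Of 24 saposin-like genes, 12 fell and 1 rose: spp-17 stood at 2150.0, 2138 and 855.5 CPM in ust221, against 638.3, 517.4 and 495.9 CPM in ok302 (1.64 ± 0.35, edgeR, adjusted p = 0.00712). C-type lectin genes fell in 73 of 157 cases and rose in 16 (87 and 8 with library totals, 25 and 7 of 167 over 15 libraries; median -1.02), and clec-47 rose by 3.26 ± 0.78. Of 20 gut cathepsin genes 6 fell and none rose, beside 22.0% of all genes called lower, with 9 falls without ok302 replicate 2 and 4 without ok302 replicate 1. Their summed level overlapped, at 19815.5, 17547.4 and 11022 CPM in ust221, against 25481.4, 15574 and 36516.3 CPM in ok302. The cathepsin B gene cpr-1 stood at 108.8, 165 and 75.3 CPM in ust221, against 1508, 1896 and 1565 CPM in ok302 (-3.83 ± 0.33, adjusted p = 2.1e-04). The aspartyl protease genes asp-5 and asp-6, among the 5 most abundant genes that fell (-1.37 ± 0.43 and -1.32 ± 0.42), were not called without ok302 replicate 3 (-0.94 and -0.95, adjusted p = 0.135 and 0.147). Intestine markers as a whole were even between the strains, with 2 of 12 called higher (1 with library totals) and a median of 0.00, and their summed level was 1439 to 2324 CPM in ust221, against 1303 to 1591 CPM in ok302.

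Genes of fat metabolism gave different balances of calls by list, beside 18.2% of all genes called higher and 22.0% called lower. Fatty acid desaturases, which put double bonds into fatty acids, fell in 5 of 7 cases and rose in none (7 and 0 with library totals; median -0.84). The stearoyl-CoA desaturase gene fat-7 stood at 36.0, 35.2 and 27.7 CPM in ust221, against 251.3, 139.8 and 366 CPM in ok302 (-2.94 ± 0.32, edgeR, adjusted p = 5.7e-04). Its paralogs fat-6 (-0.75 ± 0.22) and fat-5 (-0.84 ± 0.28) fell, as did fat-3 (-1.39 ± 0.17) and fat-2 (-1.13 ± 0.27), which act in the synthesis of polyunsaturated fatty acids. Without ok302 replicate 3, fat-2, fat-5 and fat-6 were not called (adjusted p = 0.057, 0.0909 and 0.0864). The call of fat-5 was also lost without ok302 replicate 1 or 2, without ust221 replicate 2 or 3, and over 15 libraries. That of fat-6 was also lost without ok302 replicate 1 or ust221 replicate 2. The members fat-4 (-0.17 ± 0.20) and fat-1 (0.04 ± 0.23) were not called, and fat-1 had 796, 813.8 and 533.9 CPM in ust221, against 612, 689.8 and 785 CPM in ok302. With library totals fat-1 stood at -0.45 and was called.

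Genes of fat synthesis and oxidation, a single list that holds both, rose more often than they fell with TMM but not with library totals. Of 20 genes of fat synthesis and oxidation, 9 rose and 1 fell (2 and 3 with library totals; 3 rises without ok302 replicate 3; median 0.46). The acyl-CoA synthetase gene acs-1, which acts in the making of branched-chain fatty acids, stood at 281, 263.9 and 238.5 CPM in ust221, against 77.9, 79.8 and 21.8 CPM in ok302 (2.13 ± 0.41, edgeR, adjusted p = 0.00456). The elongase gene elo-3 rose by 1.204 ± 0.18, and both genes kept their call with library totals. Lysosomal lipases fell: lipl-2 stood at 8.08, 9.24 and 10.7 CPM in ust221, against 92.5, 67.8 and 100.3 CPM in ok302 (-3.21 ± 0.21, adjusted p = 1.5e-04), and lipl-1 (-2.97 ± 0.24) and lipl-3 (-1.83 ± 0.37) went with it. In the same list of 19 fat storage and lipase genes, 7 rose and 4 fell (2 and 5 with library totals). The share of falls in the main fit was close to the 22.0% of all genes. The fatty-acid-binding protein gene lbp-6 rose by 1.63 ± 0.27 and the diacylglycerol acyltransferase gene dgat-2 by 1.14 ± 0.24. Of 12 peroxisomal oxidation genes 2 rose and 2 fell (0 and 5 with library totals), near the shares of all genes, 18.2 and 22.0%.

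Yolk protein genes rose in 3 of 6 cases and fell in none (3 and 1 with library totals). The summed level of the list overlapped, at 57696.9, 40997.9 and 35338.6 CPM in ust221, against 41061.2, 26488.4 and 33522 CPM in ok302. The gene vit-1 stood at 6037, 4379 and 3571 CPM in ust221, against 1178, 1257 and 820.2 CPM in ok302 (2.103 ± 0.32, edgeR, adjusted p = 0.00193), with no overlap between the groups. Levels of vit-3 and vit-4 rose by 1.23 ± 0.33 and 1.29 ± 0.35 (adjusted p = 0.0175 and 0.0185). Those calls were lost without ok302 replicate 2 (adjusted p = 0.084 and 0.0815) and without ok302 replicate 3 (0.0931 and 0.0887). The other members, vit-2, vit-5 and vit-6, stood at 0.12 ± 0.38, -0.22 ± 0.36 and 0.09 ± 0.35 and were not called. Reads of vit-3, vit-4 and vit-5 come from near-identical copies, so their division among the 3 genes is uncertain.

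Transcripts of the proliferating and oogenic germ line rose together, by modest amounts. Of 21 oocyte RNA-binding and maturation genes 15 rose and none fell (7 and 1 with library totals, 14 and 0 over 15 libraries), with a median of 0.86. Of 19 germ granule genes 16 rose (7 with library totals, 12 over 15 libraries; median 0.91), and of 19 genes of germline stem cells and meiotic entry 14 rose (4 and 9; median 0.62; 9 without ok302 replicate 3). None fell in either list. Eggshell and egg activation genes rose in 11 of 15 cases (3 with library totals; 6 without ok302 replicate 1; median 0.72). Against these, 18.2% of all tested genes were called higher, and 3.95% with library totals.

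Single genes of these lists had narrow spreads. The Nanos gene nos-2, which acts in germ cell development, stood at 139.3, 133.9 and 128.9 CPM in ust221, against 59.3, 54.01 and 62.9 CPM in ok302 (1.19 ± 0.15, edgeR, adjusted p = 7.6e-04). The translational repressor gene gld-1, which keeps meiotic germ cells from returning to mitosis, stood at 559, 521.5 and 509.5 CPM in ust221, against 265.5, 232.3 and 180.7 CPM in ok302 (1.23 ± 0.20, adjusted p = 0.00232). The DEAD-box helicase gene cgh-1 of germ granules stood at 1374, 1128 and 1000.0 CPM in ust221, against 567, 498.2 and 490.0 CPM in ok302 (1.17 ± 0.22, adjusted p = 0.00409). All 3 genes kept their call under library totals, and no ust221 value overlapped an ok302 value. Also kept there were sygl-1, which maintains germline stem cells (1.05 ± 0.16), the Vasa-related genes glh-1 and glh-2 (1.07 ± 0.19 and 1.15 ± 0.16) and the eggshell genes egg-4, egg-5 and cpg-3 (1.03 ± 0.17, 1.15 ± 0.16 and 1.06 ± 0.21).

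Meiosis and DNA replication genes followed, with fewer calls under library totals or upper-quartile scaling but not with DESeq2 size factors. Of 37 genes of the meiotic chromosome axis and synapsis 13 rose and none fell (2 and 0 with library totals; median 0.38), among them the axis gene htp-1 (1.11 ± 0.18) and the kinase gene chk-2 (1.43 ± 0.29). DNA replication genes rose in 15 of 24 cases (1 with library totals; median 0.59), with the sliding clamp gene pcn-1 at 1.06 ± 0.18 the one kept. Cyclin and mitosis genes rose in 10 of 22 cases and fell in 2 (1 and 2 with library totals; 4 and 2 with upper-quartile scaling; 4 rises without ok302 replicate 1). The B-type cyclin gene cyb-3 rose by 1.00 ± 0.18, while the cyclin-dependent kinase inhibitor gene cki-1 (-1.07 ± 0.27) and the D-type cyclin gene cyd-1 (-0.96 ± 0.34) fell. Both of those falls were lost without ok302 replicate 3 and over 15 libraries. The call of cyd-1 was also lost without ok302 replicate 2, without ust221 replicate 1 or 3, and with the replicate block.

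**Figure D4:**
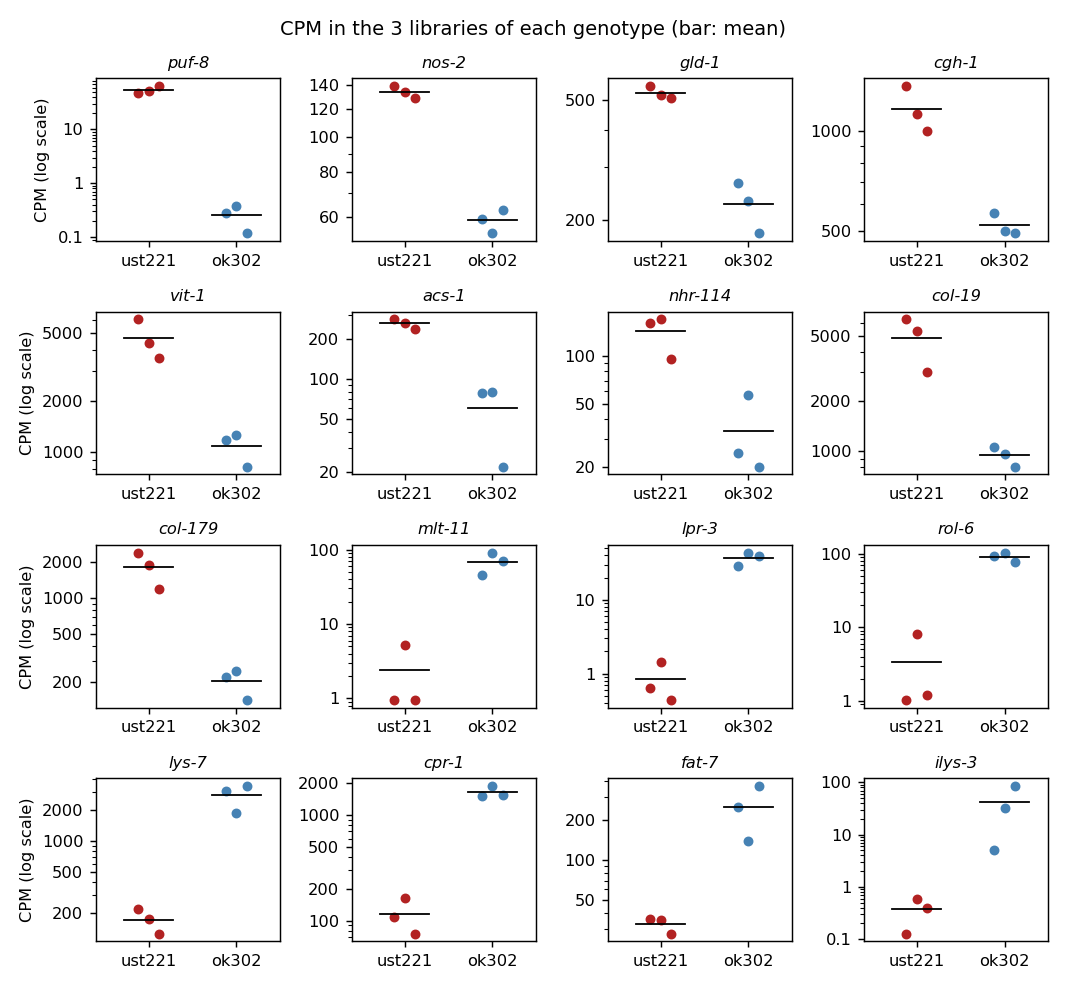
CPM (log scale) of 16 genes in the 3 ust221 libraries (red, left) and the 3 ok302 libraries (blue, right), with replicates 1 to 3 from left to right and a bar at the mean of each genotype. In each of the 16 genes the libraries of ust221 and ok302 do not overlap. Values of rol-6 and mlt-11 differ most within ust221 and values of ilys-3 most within ok302.

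Members of the PUF family itself, apart from puf-8, rose in 7 of 9 cases and fell in none (4 and 0 with library totals; 6 and 1 with upper-quartile scaling; median 0.84). The stem cell regulator genes fbf-1 and fbf-2 rose by 0.84 ± 0.18 and 1.28 ± 0.22, and fbf-2 had 59.5, 42.5 and 34.3 CPM in ust221, against 19.5, 19.5 and 17.1 CPM in ok302 (edgeR, adjusted p = 0.00299). The oocyte genes puf-3, puf-11 and puf-5 rose by 1.13 ± 0.18, 1.09 ± 0.17 and 0.92 ± 0.21. The first 2 of these are near-identical, so their reads are hard to divide. Levels of puf-6 and puf-7 rose by 0.69 ± 0.15 and 0.77 ± 0.19. With library totals fbf-1, puf-6 and puf-7 were not called (edgeR, adjusted p = 0.236, 0.315 and 0.179). The members puf-12 (0.25 ± 0.17) and puf-9 (-0.25 ± 0.16) were not called, and puf-9 was called lower with upper-quartile scaling. Without ok302 replicate 3 puf-5 (adjusted p = 0.0508) and puf-7 (0.0504) missed the threshold.

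Of 6 mRNAs reported as PUF-8 targets 1 was called. The mitochondrial fission factor gene mff-2 stood at 67.4, 62.4 and 55.1 CPM in ust221, against 35.3, 36.3 and 28.9 CPM in ok302 (0.88 ± 0.16, edgeR, adjusted p = 0.00415; not called with library totals, adjusted p = 0.139). The paralog mff-1 stood at 4.74, 5.98 and 7.50 CPM in ust221, against 7.39, 8.73 and 6.03 CPM in ok302, with overlapping groups (-0.28 ± 0.27, adjusted p = 0.437). The homeobox gene pal-1 (0.40 ± 0.18), the phosphatase gene lip-1 (0.44 ± 0.19), the Ras gene let-60 (0.08 ± 0.23) and farl-11 (0.24 ± 0.24) did not pass, with adjusted p from 0.0902 to 0.797. With 1 call among 6 genes the list's share was close to the 18.2% of all genes called higher.

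Sperm genes were called in different numbers by list. Major sperm proteins, the abundant cytoskeletal proteins of crawling sperm, were not called in 28 of 30 cases, with 2 falls and a median of 0.04. Their summed level overlapped, at 1678, 2177 and 796 CPM in ust221, against 1876, 1272 and 1497 CPM in ok302. These genes are near-identical copies with uncertain counts. Of 25 small sperm protein genes 2 fell and 1 rose (11 and 0 with library totals; median -0.27). Of 30 other genes of sperm formation and function 15 fell and 2 rose (21 and 0 with library totals, 2 and 0 over 15 libraries; 8 falls without ok302 replicate 2; median -1.01). The ferlin gene fer-1, needed for fusion of sperm vesicles with the cell surface, fell, at log2 -2.18 ± 0.30. Levels of fer-1 were 1.09, 1.60 and 1.86 CPM in ust221, against 6.63, 7.01 and 7.27 CPM in ok302. The Argonaute genes alg-3 and alg-4, which act in sperm formation, fell, at -0.97 ± 0.28 and -1.301 ± 0.32, as did wago-10 (-2.10 ± 0.34), while 7 of the 19 Argonautes rose, among them prg-1 (0.98 ± 0.18) and csr-1 (0.69 ± 0.17). With library totals the 3 falls were called and none of the 7 rises was. Over 15 libraries 2 Argonautes were called higher and none lower. The call of alg-3 was also lost without ok302 replicate 1 or 3 or ust221 replicate 1.

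Markers of male somatic tissues fell too. Of 13 tested, 8 fell and none rose (12 and 0 with library totals, 2 and 0 over 15 libraries; median -1.73). The polycystin gene lov-1 of male sensory neurons had 0 counts in ust221 and 1.25, 1.86 and 0.389 CPM in ok302, at least 24.4-fold lower. Its partner gene pkd-2 stood at 0.0641, 0.374 and 0.0728 CPM in ust221, against 3.45, 1.09 and 1.87 CPM in ok302 (-3.64 ± 0.74, edgeR, adjusted p = 0.0056). Summed over the 15 genes of the list, levels were 60.1, 58.0 and 37.1 CPM in ust221, against 101.2, 86.0 and 84.2 CPM in ok302, and 2 of the 15 were at 0 in ust221 and none in ok302. The masculinising ligand gene her-1 stood at 1.03, 0.321 and 0.655 CPM in ust221, against 3.01, 3.75 and 2.64 CPM in ok302 (-2.24 ± 0.45, adjusted p = 0.00528). Of the other sex determination genes 5 of 19 rose (1 with library totals), with the phosphatase gene fem-2 at 1.23 ± 0.21. The part of males or of other cell types in the sperm results was not tested. Of 9 early zygotic genes tested 4 fell, including the hatching protease gene hch-1, which had 0.0641, 0 and 0 CPM in ust221, against 1.77, 0.911 and 1.01 CPM in ok302 (-5.82 ± 0.92, adjusted p = 0.00211). Without ok302 replicate 1 only 2 early zygotic genes fell, and over 15 libraries 1 of 16 did. The 4 that fell were weakly expressed, with medians of 0.321 CPM in ust221 and 1.41 CPM in ok302. Of all genes tested 22.0% fell.

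Neuronal lists held few rises, beside 18.2% of all genes called higher and 22.0% called lower. Neuropeptide genes, insulin-like peptides included, fell in 37 of 126 cases and rose in 3 (89 and 1 with library totals, 6 and 2 of 131 over 15 libraries; 19 falls without ok302 replicate 3; median -0.59). This list overlaps that of the antimicrobial peptides, and the epidermal peptide gene nlp-34 is counted in both. The insulin-like gene ins-19 stood at 0, 0.160 and 0.0364 CPM in ust221, against 16.23, 10.3 and 8.01 CPM in ok302 (-7.36 ± 0.61, edgeR, adjusted p = 1.7e-04), and ins-31 fell by 4.32 ± 0.66. Of 22 neuron markers 5 fell, close to the share of all genes, and none rose (13 and 0 with library totals, 0 and 0 over 15 libraries). Among the 5 were rab-3 and snt-1, which act on synaptic vesicles (-1.08 ± 0.24 and -1.21 ± 0.25). The summed level of the neuron markers overlapped between the strains, at 727.7 to 967 CPM in ust221, against 890.0 to 939.6 CPM in ok302. Sensory cilium genes fell in 12 of 38 cases and rose in 1, dyf-3 (1.68 ± 0.31), and without ok302 replicate 2 only 4 fell. Over 15 libraries 2 of 40 cilium genes fell and 1 rose. Of the sarcomere genes, the myosin heavy chain gene myo-3 stood at 104.5, 121.7 and 103.2 CPM in ust221, against 233.3, 243.6 and 234.9 CPM in ok302 (-1.11 ± 0.15, edgeR, adjusted p = 0.00132). The other body wall myosin gene, unc-54, rose by 1.01 ± 0.28, a call lost without any 1 of ok302 replicates 1, 2 and 3 or ust221 replicates 1 and 2. Of 24 sarcomere genes 4 fell and 2 rose (8 and 1 with library totals; 11 rises without ust221 replicate 3). In the main fit both shares were below those of all genes, 22.0 and 18.2%.

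Longevity and stress genes gave no single direction. Among 15 targets that DAF-16/FOXO activates, 5 fell and 1 rose (8 and 0 with library totals, 1 and 1 over 15 libraries). The metallothionein gene mtl-1 stood at 8.97, 18.3 and 5.72 CPM in ust221, against 164, 88.1 and 162 CPM in ok302 (-3.66 ± 0.43, edgeR, adjusted p = 6.7e-04), and the transhydrogenase gene nnt-1 and dod-3 fell, at -3.21 ± 0.23 and -3.05 ± 0.35. The groups of mtl-1 did not overlap, and ust221 replicate 2 was the highest of its own. Of 8 targets that DAF-16 represses, dod-17 and dod-23 rose by 1.85 ± 0.34 and 1.70 ± 0.22, and dod-22 fell by 1.21 ± 0.35. The pud genes, of unknown biochemical function, fell in 5 of 6 cases (2 without ok302 replicate 1), with pud-4 at -2.74 ± 0.24. Oxidative stress genes rose in 7 of 14 cases and fell in 1 (4 and 3 with library totals). The methionine sulfoxide reductase gene msra-1 stood at 117.2, 111.2 and 82.3 CPM in ust221, against 17.4, 34.1 and 16.8 CPM in ok302 (2.18 ± 0.29, adjusted p = 0.00106), and the mitochondrial peroxiredoxin gene prdx-3 rose by 1.04 ± 0.22. The mitochondrial chaperonin gene hsp-60 stood at 640.4, 540.1 and 405.7 CPM in ust221, against 162, 214.9 and 166.3 CPM in ok302 (1.55 ± 0.23, adjusted p = 0.00156). It was the one of 10 mitochondrial stress genes to rise with library totals.

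Detoxification families also split by family. UDP-glucuronosyltransferase genes rose in 22 of 61 cases and fell in 9 (median 0.42; 10 and 15 with library totals, median -0.03). Those that rose most were ugt-53 (2.06 ± 0.40), ugt-64 (1.75 ± 0.20) and ugt-9 (1.69 ± 0.28). Cytochrome P450 genes fell in 21 of 58 cases and rose in 10 (24 and 3 with library totals, 13 and 4 of 67 over 15 libraries; median -0.56), with cyp-34A2 at -3.69 ± 0.28 and cyp-29A3 at 2.88 ± 0.36. Of 39 glutathione S-transferase genes 6 rose, among them gst-26 (1.46 ± 0.22), and 4 fell, among them gst-33, which had 4.298, 48.8 and 4.74 CPM in ok302 and was not called without replicate 2 of that strain. In the main fit both shares were below those of all genes, 18.2 and 22.0%. With library totals 4 glutathione S-transferase genes rose and 12 fell. Nuclear hormone receptor genes fell in 29 of 190 cases and rose in 8 (52 and 1 with library totals, 8 and 5 of 203 over 15 libraries; 14 falls without ok302 replicate 2), shares below those of all genes. Among them nhr-25, a regulator of molting, fell by 2.16 ± 0.33. Of 53 transthyretin-like genes 13 fell and 4 rose (24 and 1 with library totals), with the share of falls near the 22.0% of all genes.

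Core cellular machinery rose by small and even amounts, and most of the calls were lost with library totals. Proteasome subunit genes rose in 29 of 33 cases (2 with library totals, 24 over 15 libraries; 9 without ok302 replicate 2), with a median of 0.71 and a highest value of 0.98 ± 0.18 for rpn-9. Mitochondrial ribosomal protein genes rose in 42 of 70 cases (3 with library totals; 14 without ok302 replicate 3), nuclear pore and transport genes in 27 of 40 (1; 11 without ok302 replicate 3) and translation factor genes in 25 of 39 (4; 11 without ok302 replicate 3). In these 4 lists no member was called lower, and with library totals 1 translation factor was. With DESeq2 size factors 29, 46, 28 and 27 members of the 4 lists rose. Cytosolic ribosomal protein genes had a median of 0.59 but only 2 rose and 1 fell of 81, and 76 rose without ust221 replicate 3. Their summed level was 266575, 252716 and 139381 CPM in ust221, against 137219, 138730.4 and 161697 CPM in ok302, so ust221 replicate 3 lay with the ok302 libraries. With library totals the medians of these 5 lists were 0.22, 0.10, 0.12, 0.21 and 0.07, against -0.51 for all genes.

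Of 40 histone genes 10 rose and 7 fell (3 and 8 with library totals; 5 rises without ok302 replicate 2), near the shares of all genes, 18.2 and 22.0%. The linker histone gene hil-7 stood at 0.385, 0.641 and 0.401 CPM in ust221, against 10.2, 9.43 and 8.36 CPM in ok302 (-4.29 ± 0.33, edgeR, adjusted p = 1.5e-04), and hil-5 rose by 0.97 ± 0.24. Most histone genes have near-identical copies and their counts are uncertain. Of 14 genes of the mitochondrial genome 1 rose and 1 fell (0 and 2 with library totals). Genes of mitochondrial dynamics and mitophagy rose in 5 of 13 cases and fell in none (0 and 1 with library totals), and heat shock and endoplasmic reticulum chaperone genes rose in 3 of 17 and fell in none (0 and 2). Genes of ubiquitin conjugation rose in 9 of 45 cases and fell in 4 (0 and 11 with library totals). Of 11 sheath and spermatheca markers 1 rose and 1 fell (0 and 2 with library totals), and of 65 serpentine chemoreceptor genes tested 3 rose and 12 fell (3 and 17).

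Called genes were spread over all chromosomes with different balances. On chromosome III 22.7% of tested genes rose and 18.1% fell, and on chromosome I 20.96% rose and 18.1% fell. On chromosome V 16.4% rose and 26.1% fell, the highest share of falls, and on the X chromosome 13.3% rose and 19.9% fell, the lowest share of rises among the nuclear chromosomes. Chromosomes II and IV lay between, with 18.5 and 17.2% rising and 24.0 and 24.2% falling. With library totals chromosome V again had the most falls, 38.0%, but the order of rises turned: chromosome V had the highest share of the nuclear chromosomes, 4.48%, and chromosomes I and III the lowest, 3.36 and 3.59%. Pseudogenes fell in 160 of 513 cases and rose in 57, while protein-coding genes fell in 3357 of 15454 cases and rose in 2872.

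**Figure D5:**
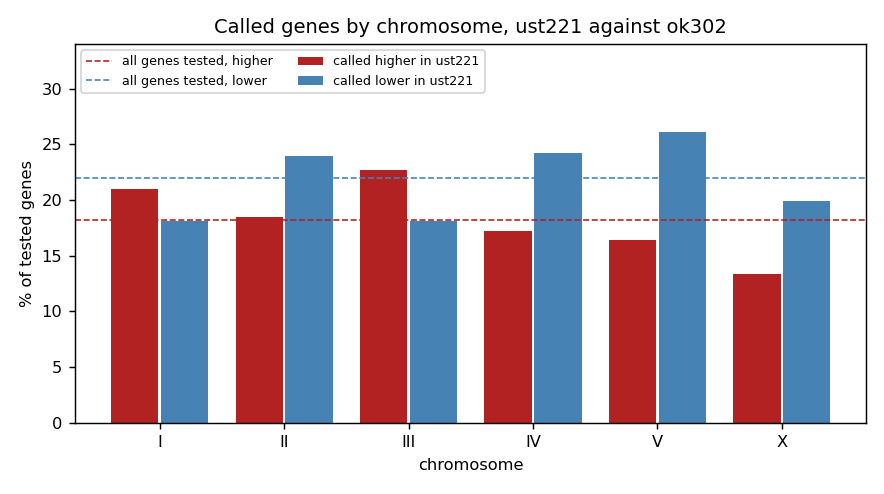
Share of tested genes called higher (red, left bars) and lower (blue, right bars) in ust221 than in ok302 on each nuclear chromosome, with dashed lines at the shares of all genes tested, 18.2% and 22.0%. Chromosomes I and III lie above the line for rises and below it for falls, and chromosomes II, IV and V lie above the line for falls.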

How the data were processed

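Counts of reads per gene for 15 libraries were used as the authors deposited them, raw and whole, in 1 table with gene identifiers, coordinates and lengths. HISAT2 2.0.5 is named per the submitters' processing notes. For the counting step the sources used here give no program, strand setting or rule for reads with several matches, and they give no genome build or annotation. Per the labels' protocols, TRIzol-extracted RNA was treated with CIAP and PNK and bound to poly-T beads before NEBNext Ultra library preparation. Symbols matched 44017 of 47111 identifiers, and 207 loci had no WormBase identifier, with up to 0.0475% of a library's counts.

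The 3 ust221 and 3 ok302 libraries were fitted with edgeR 4.0.16 in R 4.3.3 (filterByExpr by genotype, TMM, glmQLFit, glmQLFTest, two-sided, Benjamini-Hochberg over 16214 genes, called at an adjusted p under 0.05). Each standard error is the size of the log2 fold change over the square root of the F statistic. The common biological coefficient of variation was 0.268, and the procedure was tested on simulated counts. Correlations of libraries used log2 CPM with a prior count of 2. Alternatives were DESeq2 1.42.0, other scalings, other low-count filters, WormBase genes only, all 15 libraries, a replicate block and each library left out. Floors take account of counting error alone, because PCR duplicates could not be removed.

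The comparison, the 59 gene lists and the tests were chosen with earlier results of these data known. Lists are described by counts and medians without a test of the list. Genes named are puf-8, the 12 called genes per direction with the largest log2 fold change, a mean of at least 50 counts and groups that do not overlap, up to 5 called members per list and direction, the 5 most abundant called genes per direction, and all reported targets, PUF genes, vitellogenins and desaturases; clec-209 was added. The 8 list symbols puf-4, mog-6, she-1, prg-2, cdc-45, trp-3, ram-4 and emo-1 matched no gene. A planned search of 3' UTRs for the Pumilio motif was not run, as no sequence was used here. Same-numbered libraries of the strains were not taken as pairs.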

Additional observations from a re-analysis of the deposited data

How the results depend on the processing

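Of 6515 genes called, the fit over all 15 libraries gave 2878 (1870 higher and 1008 lower in ust221), and a further limit of 1 on the log2 fold change in either direction left 3991 (880 higher, 3111 lower). Leaving out 1 library gave 4100 to 7781 calls, 1513 to 3802 higher and 2587 to 3979 lower, fewest without ok302 replicate 3 and most without ust221 replicate 3. Rises numbered 640 with library totals and 1386 with upper-quartile scaling, and the share of rises among the calls was 10.8 and 24.2% there, against 45.2% in the main analysis. The cause of these differences was not tested. The share was 65.0% over all 15 libraries. DESeq2 called 7088 genes, 3449 higher and 3639 lower. The replicate block gave 5879 calls (2623 higher, 3256 lower); deviations of same-numbered libraries correlated at 0.169, 0.039 and -0.009, so the numbers were not read as pairs. The fold change of puf-8 kept its call in all 15 alternatives. Of the 346 named genes called, 90 missed the threshold with library totals, 133 over all 15 libraries and 27 with the replicate block, and none was called in the other direction. The uncalled fat-1 (0.04) turned to -0.45 with library totals. Depth limits genes near 0 in ust221, whose folds rest on few reads. The planned search of 3' UTRs was not run.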

Other observations

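Some protein domain families, which overlap the gene lists in part, held calls mostly of 1 direction. Among domains other than those of collagens, annotated in the deposited table to at least 20 tested genes, those with the largest shares of falls in ust221 were, beside an unnamed domain of unknown function (43 of 45 genes fell) and DUF148, another domain of unknown function (14 of 20 fell and 1 rose), the chymotrypsin-like serine proteases (13 of 20 fell and none rose), the astacin metalloproteases (21 of 34 fell and none rose), the protein-tyrosine phosphatases (50 of 84 fell and 4 rose) and the Kunitz-type protease inhibitors (20 of 35 fell and 3 rose). Neprilysin-like M13 peptidases fell in 15 of 27 cases and proteins with an ShK toxin-like domain in 32 of 65. With library totals these falls numbered 43, 16, 15, 24, 64, 23, 18 and 44.

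Domains with the largest shares of rises were WD repeats (22 of 39 rose and 2 fell), RNA recognition motifs (44 of 85 rose and 5 fell) and KH domains (13 of 28 rose and 1 fell), families that bind RNA or build protein complexes. With library totals 1, 3 and 2 of them rose. Tyrosine kinases, by contrast, fell in 42 of 108 cases and rose in 3. Accessions of the same name were joined, with a gene counted once. These families were ranked after their counts were seen and are given as counts only.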
